A study of Homo sapiens with 3 samples.

Results

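The 2 keratin gene clusters of the human genome were examined for binding of TFE3, a transcription factor of the MiT/TFE family. Members were all HA-TFE3 summits inside 2 fixed stretches of hg19. The type II cluster was taken as bases 52560001 to 53350000 of chromosome 12 and the type I cluster as bases 38800001 to 39790000 of chromosome 17. They held 80 of the 62287 summits used from replicate 1 and 94 of the 72647 from replicate 2. Within the clusters, KRT7 (bases 52627001 to 52643000), KRT8 with KRT18 (53291001 to 53347000) and KRT19 (39680001 to 39685000) formed the simple-epithelium keratins. The remainder of both clusters, with the genes of hair and skin keratins and the space between them, is called the hair and skin stretches.

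The libraries came from HK-2, an established line of human kidney proximal tubule epithelium, modified so that doxycycline switches on HA-tagged TFE3. The series lists 2 chromatin immunoprecipitation (ChIP) replicates drawn down through the HA tag and 1 input DNA library, which was not analysed here. Cells were kept in 1.5% FCS for 24 h, some with 0.2 µg/ml doxycycline and some without, and the labels do not say which ChIP library received it. Both ChIP libraries carry the same genotype, and no label says whether they came from separate cultures. Summit lists hold no expression, so the labelled cell type could not be checked against marker genes, and whether any keratin is transcribed in these cells was not measured.

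Keratins are the proteins of epithelial intermediate filaments, in which an acidic type I chain always pairs with a basic type II chain. KRT8 and KRT18 form the pair of simple, single-layered epithelia such as kidney tubules, KRT7 is a type II chain of many ducts, and KRT19 is a type I chain of ducts and of some stratified epithelia. Most other genes of the clusters serve stratified epithelia, skin or hair, among them KRT5 and KRT14 of basal cells and KRT1 and KRT10 of upper epidermis. KRT18 encodes a type I chain but lies beside KRT8 in the type II cluster. KRT20, an intestinal keratin, lies among the type I genes and was counted with the hair and skin stretches by the rule used. MiT/TFE factors are known to bind E-box sequences with the core CACGTG and variants such as CATGTG.

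The order of the genes was read from the RefSeq table of GRCh38.p14, whose coordinates cannot be set beside hg19 summits. From KRT80 to KRT18 it lists 27 protein-coding genes, all of them keratins, with 23 between KRT7 and KRT8. From KRT222 to KRT17 it lists 28 keratin genes and 34 genes of keratin-associated proteins, the matrix proteins of hair. All 34 lie between KRT40 and KRT33A. KRT19 has 23 keratin genes on one side and 4 on the other. No intervals on hg19 were used for genes other than KRT7, KRT8, KRT18 and KRT19, so a summit of the hair and skin stretches is given by position and is assigned to no gene.

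E-box content could be read only in RefSeq promoter sequences of GRCh38.p14, here the 250 bases before a start of transcription. Of the 55 keratin genes, 34 had such a sequence, and of the simple-epithelium keratins 1 did, KRT8. Several genes have more than 1 start, so shares are given per gene. CACGTG, which reads the same on both strands, was present for 1 of the 34 keratin genes, KRT40, or 2.94%, against 7.73% of all 27305 genes of the table. Per promoter sequence the direction was the opposite, with 3 of 38, all of KRT40, or 7.9%, against 6.3% of all. With so few genes this difference was not tested. TCACGTG, a longer form that contains CACGTG and was searched on both strands, was present for 0 of the 34 genes and for 4.02% of all. CATGTG, searched on both strands, was present for 4 of the 34 (KRT10, KRT39, KRT40 and KRT73), or 11.8%, against 11.5% of all. The promoter of KRT8 is printed as the one available for a simple-epithelium keratin, and one of KRT40 as the contrasting promoter with the E-box core, which stands in capitals. The KRT8 start used here lies inside the span that the table gives the gene, so other KRT8 transcripts start elsewhere. Both sequences are on the minus strand of GRCh38.p14, at chr12:52926470-52926719 and chr17:40987136-40987385. Neither could be placed against the summits.
KRT8: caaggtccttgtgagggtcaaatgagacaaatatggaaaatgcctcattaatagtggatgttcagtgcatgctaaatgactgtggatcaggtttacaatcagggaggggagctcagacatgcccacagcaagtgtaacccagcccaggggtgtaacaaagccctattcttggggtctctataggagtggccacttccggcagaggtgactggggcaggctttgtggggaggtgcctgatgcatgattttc
KRT40: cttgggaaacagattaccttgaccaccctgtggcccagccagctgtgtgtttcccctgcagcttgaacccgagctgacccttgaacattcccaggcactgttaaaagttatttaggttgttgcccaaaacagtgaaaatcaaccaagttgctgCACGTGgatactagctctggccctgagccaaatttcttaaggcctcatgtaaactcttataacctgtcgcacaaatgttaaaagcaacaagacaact

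Each summit is a single base with a score given by the authors, used here only to describe or rank summits within a list. The lists hold no read counts, so the sequencing depth behind a summit is unknown. Score percentiles rank each summit among those of its own library. The median score of all summits used was 8.55 in replicate 1 and 8.38 in replicate 2. Summits of the 2 lists were called shared when each was the nearest to the other at a distance of at most 100 bp. The clusters held 66 shared summits, 28 in the type II and 38 in the type I cluster. They made up 82.5% of the cluster summits of replicate 1 (95% exact binomial interval 72.4 to 90.1), where 76.1% of all summits were shared. In replicate 2 they made up 70.2% (59.9 to 79.2), where 65.2% of all were shared. Both intervals include the share over the whole list. At the simple-epithelium keratins 8 of 12 summits of replicate 1 were shared, or 66.7% (34.9 to 90.1), and 8 of 14 of replicate 2, or 57.1% (28.9 to 82.3). In the hair and skin stretches the shares were 85.3% (74.6 to 92.7) and 72.5% (61.4 to 81.9). The intervals of the 2 classes overlap in each library. All intervals given here are at 95% and cover counting error only, because neighbouring summits are not independent of each other.

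**Figure D1:**
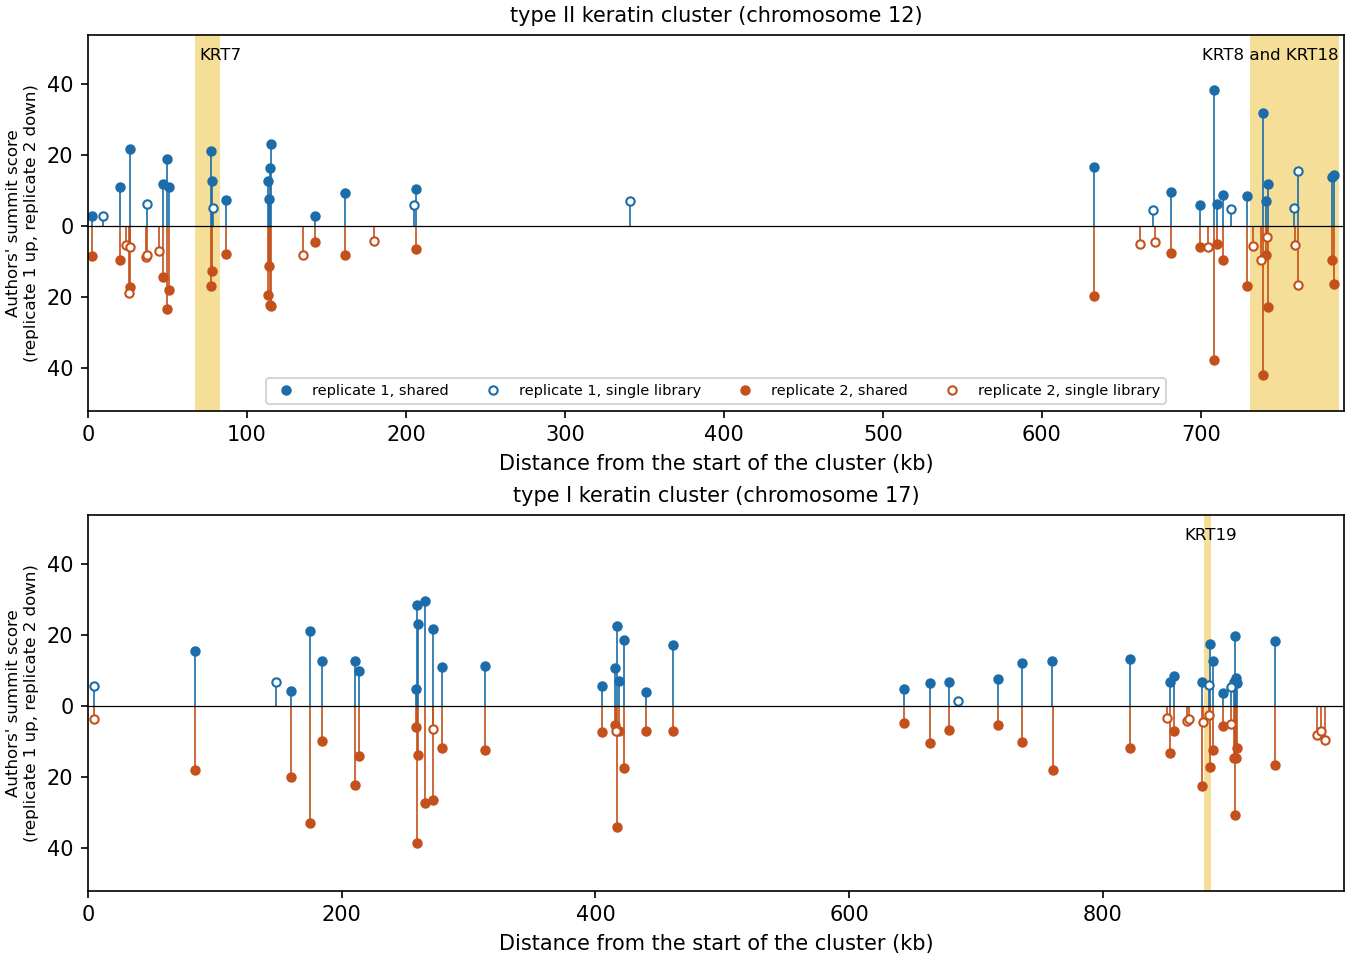
Every summit of the type II cluster (top) and the type I cluster (bottom) by its distance from the start of the cluster in kb, with the authors' score upwards for replicate 1 and downwards for replicate 2. Filled points are shared and open points belong to a single library. The shaded intervals are KRT7, KRT8 with KRT18, and KRT19. Summits of the type II cluster gather at both of its ends and leave 426.6 kb between them without a shared summit.

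At KRT7, HA-TFE3 had 2 shared summits, which lay 621 bp apart in the 16 kb interval. The first, at base 52637411, scored 21.2 in replicate 1 and 16.7 in replicate 2, at percentiles 86.0 and 77.5. The second, at base 52638032, scored 12.8 and 12.5, at percentiles 68.3 and 66.3. Both thus lay in the upper part of each list, and the libraries placed them within 12 bp and 11 bp of each other. Replicate 1 also had a summit at base 52638586 with a score of 5.23, whose nearest neighbour in replicate 2 was 565 bp away.

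KRT8 and KRT18, which lie side by side, carried 5 shared summits in 56 kb, from 7 summits of replicate 1 and 10 of replicate 2. The highest-scoring one, at base 53298953, had 32.0 in replicate 1 and 41.9 in replicate 2. These scores stood at percentiles 94.99 and 97.4, and the value in replicate 2 was the highest of all cluster summits in that library. About 2 to 3 kb further on, a pair of shared summits lay 944 bp apart. The one at base 53301101 scored 7.26 and 8.21, below the median of each list, and the one at base 53302045 scored 11.98 and 22.6. The remaining 2, at bases 53342809 and 53343703, were 894 bp apart near the end of the interval. They scored 13.8 and 9.52, and 14.5 and 16.2. Between these groups each library had 2 summits that did not pair within 100 bp. Those at bases 53321359 and 53321153 scored 15.6 and 16.6 and lay 206 bp apart, and those at 53318943 and 53319095 scored 5.11 and 5.39 and lay 152 bp apart. Replicate 2 had 3 more summits, of which the highest scored 9.50.

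KRT19 had 1 shared summit in its 5 kb interval, at base 39684685, with scores of 17.5 in replicate 1 and 17.2 in replicate 2. Its percentiles were 80.3 and 78.2, so the libraries ranked it alike. A further summit in each library, at bases 39683864 and 39683522, scored 6.02 and 2.58 and the 2 lay 342 bp apart. Outside the interval, shared summits followed at base 39686629 (12.6 and 12.2) and preceded it at base 39678044. The latter scored 6.89 in replicate 1 and 22.4 in replicate 2, at percentiles 37.3 and 86.4, so its rank differed strongly between the libraries.

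The simple-epithelium keratins were then set against the hair and skin stretches. Over 77 kb, KRT7, KRT8, KRT18 and KRT19 held 8 shared summits, a density of 104 per Mb (44.9 to 205, exact Poisson). The hair and skin stretches held 58 in 1703 kb, or 34.1 per Mb (25.9 to 44.0). Their length includes a single type II stretch of 426.6 kb without a shared summit, described below, where read mappability was not measured. With that stretch included, the density was 3.05-fold higher at the simple-epithelium keratins (exact conditional interval of the ratio 1.26 to 6.42). With all summits of a library the ratio was 3.90 in replicate 1 (1.92 to 7.27) and 3.87 in replicate 2 (2.03 to 6.88). Relative to the average density of its own library, the density of all summits was 7.60 ± 0.002 at the simple-epithelium keratins and 1.95 ± 0.012 in the hair and skin stretches (SD, n = 2). These SDs come from a few summits that both libraries listed at largely shared places, so the counting intervals of the ratios are the wider and relevant error. This rests on few places: with summits at most 1 kb apart counted as 1, the ratio was 2.17 and its interval included 1 (0.675 to 5.40). With only the 10000 summits of highest score kept per library, it was 3.16 with an interval from 0.070 to 24.6.

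By cluster, the type II comparison of KRT7, KRT8 and KRT18 with the other type II genes gave 7 shared summits in 72 kb against 21 in 718 kb. These are 97.2 and 29.2 per Mb, a ratio of 3.32 (1.19 to 8.12), which fell to 2.22 (0.546 to 6.73) with summits within 1 kb counted as 1 place. The 718 kb include the 426.6 kb without a shared summit. In the type I cluster the single shared summit of KRT19 stood against 37 in 985 kb. The ratio of 5.32 had an interval from 0.131 to 31.6, so no difference was detectable at KRT19 with so few summits. How much of each stretch lies between genes was not measured. Counted per keratin gene of the RefSeq table, the type II cluster had 2.33 shared summits for each simple-epithelium keratin and 0.875 for each other keratin. In the type I cluster KRT19 had its 1 summit against 1.37 for each other keratin, where the stretch also holds the genes of keratin-associated proteins.

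Occupancy was also counted in windows of 10 kb. A window that touches a simple-epithelium keratin counted with any shared summit in it, also one outside the gene interval. The window beside KRT7 that holds base 52646697 counted through this hair and skin summit alone. Of the 10 windows that touch a simple-epithelium keratin, 6 held a shared summit (exact binomial interval 26.2 to 87.8%), and of 168 windows in the hair and skin stretches 40 did, or 23.8% (17.6 to 31.0), so the intervals overlap. Over the genome the share of such windows was 11.9%. In the flanks described below it was 42.1%.

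**Figure D2:**
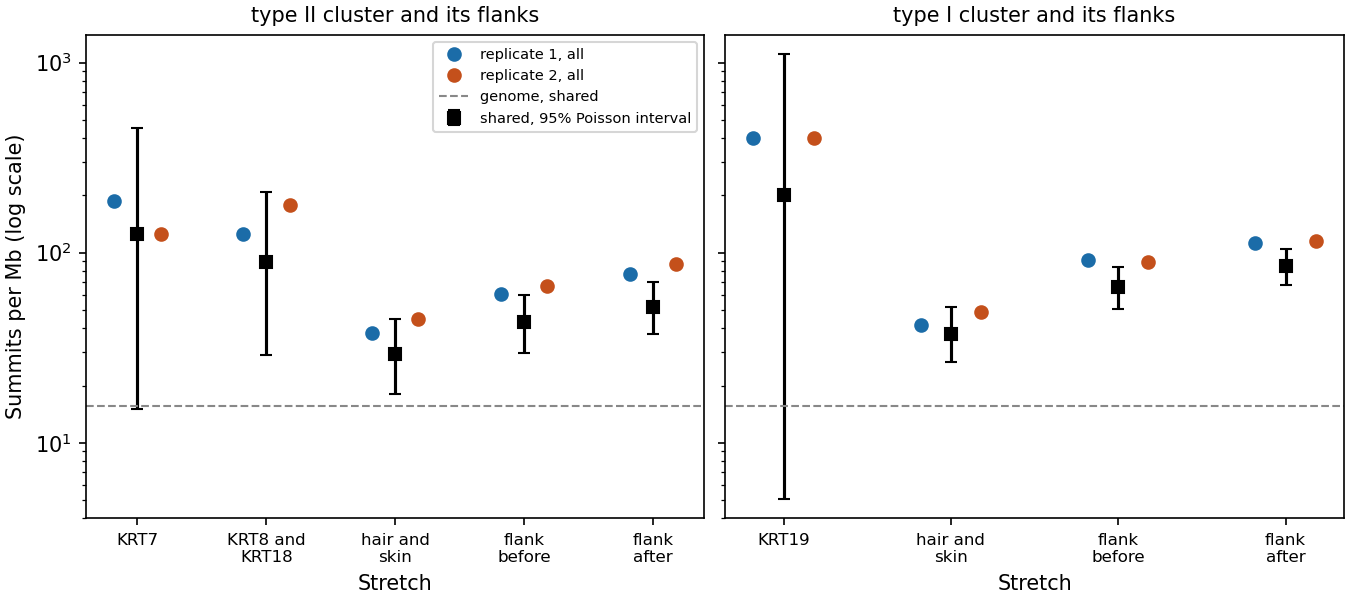
Summits per Mb on a log scale for the simple-epithelium keratins, the hair and skin stretches and the flank on each side of the type II (left) and type I cluster (right). Squares are shared summits with 95% Poisson intervals, circles all summits of each replicate, and the dashed line the genome average of shared summits at 15.6 per Mb. The hair and skin stretches had 29.2 and 37.6 shared summits per Mb, the lowest among the stretches of each panel but above the genome average.

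The higher density was not limited to the gene intervals. The distance classes used for this were chosen after the positions had been seen. The 50 kb on either side of the simple-epithelium keratins, inside the clusters, held 25 shared summits in 253 kb, or 98.8 per Mb (63.9 to 146). The density inside the intervals was 1.05-fold this value (0.410 to 2.40), so the interval allows a difference of over 2-fold in either direction. Compared with the rest of the hair and skin stretches, the adjoining 50 kb had a 4.34-fold higher density (2.48 to 7.53). The ratio was 4.01 in replicate 1 and 4.93 in replicate 2. That rest includes the single type II stretch of 426.6 kb without a shared summit, where read mappability was not measured. Against the flanks described below, the adjoining 50 kb of both clusters had a ratio of 1.57, with an interval that included 1 (0.995 to 2.38). By cluster this ratio was 2.20 in type II (1.20 to 3.81) and 1.20 in type I (0.536 to 2.33).

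The density by distance was also counted for each cluster. KRT7 and the KRT8 and KRT18 interval lie near opposite ends of that cluster. Distance from them therefore cannot be told apart from distance to the cluster limits. From 104.6 shared summits per Mb within 50 kb of KRT7, KRT8 and KRT18, the density was 34.2 at 50 to 100 kb, and the 200 kb at distances of 100 to 200 kb held 1 shared summit. At more than 200 kb, 248 kb held 0 shared summits, which allows up to 14.9 per Mb, and replicate 1 had 1 summit there. These 248 kb lie wholly inside the longest stretch without a shared summit, described below, where read mappability was not measured. Most of the 200 kb at distances of 100 to 200 kb lies inside it too. In the type I cluster the 100 kb within 50 kb of KRT19 held 9 shared summits, the next 100 kb held 2, and the density at 100 to 200 kb was 28.6 per Mb. Beyond 200 kb it was 33.8 per Mb (21.4 to 50.8). The adjoining 50 kb had 11.8-fold the density of the remaining hair and skin stretch in the type II cluster (4.14 to 41.2) and 2.84-fold in the type I cluster (1.18 to 6.20). These intervals overlap, and the difference between the clusters was not tested. The remaining type II stretch includes the whole 426.6 kb without a shared summit.

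**Figure D3:**
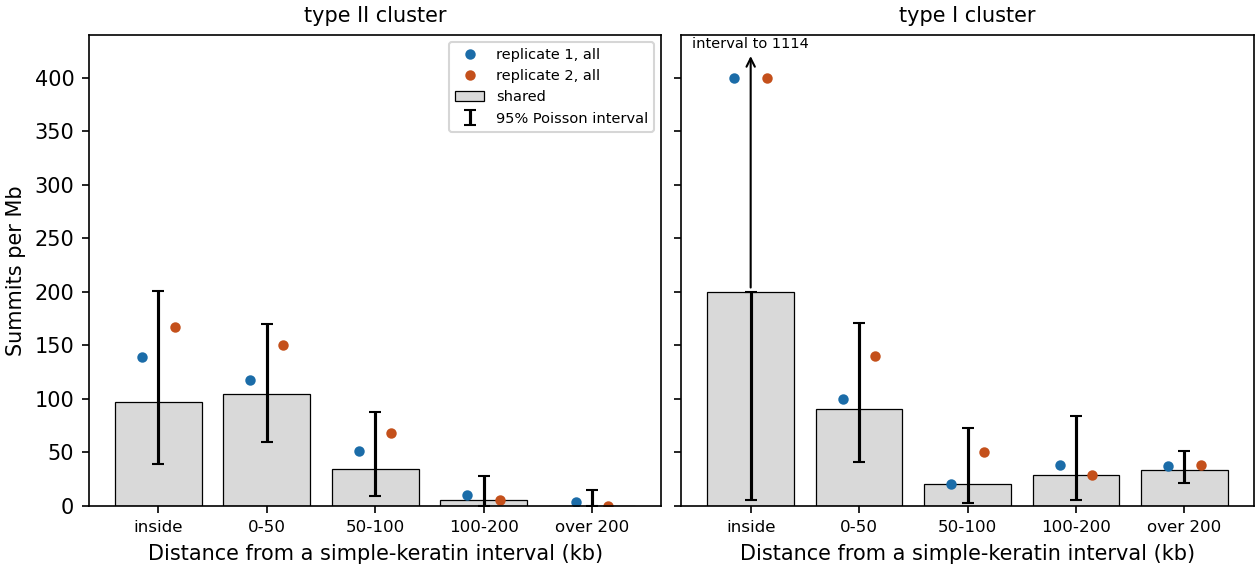
Summits per Mb by distance in kb from the nearest simple-epithelium keratin interval, for the type II (left) and type I cluster (right). Bars are shared summits with 95% Poisson intervals and circles all summits of each replicate; the upper limit inside KRT19 lies outside the axis at 1114 per Mb. Shared type II summits thinned out to 0 beyond 200 kb, whereas the type I cluster kept 33.8 per Mb there. The type II part beyond 200 kb lies inside that cluster's longest stretch without a shared summit, where read mappability was not measured.

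The strongest shared summits of the hair and skin stretches lay where most of the others lay. In the type II cluster, 16 of the 21 were within 50 kb of a simple-epithelium keratin, which takes up 153 of the 718 kb. The 5 of highest mean score percentile lay there too. The first of them, at base 53268175 and 22.8 kb before the KRT8 and KRT18 interval, scored 38.4 in replicate 1 and 37.7 in replicate 2. It had the highest mean percentile of all 66 shared cluster summits, 96.8, ahead of the leading summit of KRT8 and KRT18 at 96.2. Another, at base 52674893, scored 23.2 and 22.4 and closed a group of 4 shared summits spaced 736, 633 and 597 bp apart, 29.9 to 31.9 kb beyond KRT7. The same group contributed base 52674296, with 16.3 and 22.2. On the other side of KRT7, base 52609452 scored 18.9 and 23.2 and base 52586192 scored 21.8 and 17.1.

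In the type I cluster, 23 of the 37 shared hair and skin summits were over 200 kb from KRT19, where 680 of the 985 kb lie. Of the 5 leading ones, 4 lay 463 to 705 kb from KRT19. Base 39059558 scored 28.6 in replicate 1 and 38.6 in replicate 2, and base 39065755 scored 29.6 and 27.2. Base 39216713 scored 22.7 and 34.0, and base 38975349 scored 21.3 and 32.9. All 4 were above percentile 86 in replicate 1 and above percentile 90 in replicate 2. The fifth, at base 39704360, lay 19.4 kb beyond KRT19 and scored 19.9 and 30.7. It belonged to a group of 4 shared summits with spacings of 645, 898 and 434 bp. Counting summits at most 1 kb apart as 1 place, the 38 shared summits of the type I cluster formed 34 places and the 28 of the type II cluster formed 22.

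The longest stretch without a shared summit covered 426.6 kb of the type II cluster, from base 52766538 to 53193111, or 54% of its length. Replicate 1 had 1 summit in it, at base 52901080 with a score of 7.26, and replicate 2 had 0. Of the 3828 genome windows of the same length as the cluster, 35.6% held an equally long or longer stretch without a shared summit, and 14.4% held no shared summit at all. These windows had a median of 8 shared summits against 28 in the cluster, and windows of similar density were not compared. Of all 47373 distances between neighbouring shared summits of the genome, 2.29% were at least as long. In the type I cluster the longest such stretch ran over 182 kb from base 39261043 to 39443505, with 0 summits in replicate 1 and 1 in replicate 2, which is the partner of the shared summit at its end. Of the 3054 genome windows of the length of this cluster, 81.9% held a stretch at least as long. Their median was 11 shared summits against 38 in the cluster, and 6.54% of all neighbouring distances were at least as long. Keratin and keratin-associated genes include near-identical copies, and read mappability was not measured, so these stretches are not shown to lack binding.

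Each cluster was also compared with the stretches of equal length on both of its sides. The type I cluster had 38.4 shared summits per Mb and its flanks 75.3, a ratio of 0.510 (0.347 to 0.733). Replicate 1 gave 0.426 (0.299 to 0.594) and replicate 2 gave 0.495 (0.356 to 0.678). Both flanks were denser than the cluster, with 65.7 per Mb before and 84.8 after it. Its band, 17q21.2, had 82.8 shared summits per Mb outside the cluster. The type II cluster had 35.4 per Mb against 47.5 in its flanks, and the interval of the ratio of 0.747 included 1 (0.466 to 1.17). With all summits of a library it was 0.679 (0.454 to 0.994) in replicate 1 and 0.721 (0.499 to 1.03) in replicate 2. For the type II hair and skin stretches alone the ratio to the flanks was 0.616 (0.361 to 1.01), and the simple-epithelium keratins of both clusters stood at 1.65-fold the flanks (0.704 to 3.31). Both of these intervals include 1. With all summits of a library, the type II hair and skin ratio was 0.545 (0.344 to 0.837) in replicate 1 and 0.577 (0.378 to 0.858) in replicate 2, and the simple-epithelium ratio was 1.78 (0.912 to 3.16) and 1.998 (1.08 to 3.40).

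Both clusters lay above the genome average of shared summits, at 2.27-fold for type II and 2.46-fold for type I. Among 3828 genome windows of 790 kb, 11.5% held more shared summits than the 28 of the type II cluster. Among 3054 windows of 990 kb, 8.87% held more than the 38 of the type I cluster. The hair and skin stretches alone were at 2.18-fold the genome average. The clusters did not differ from each other in density beyond counting error, with a ratio of type II to type I of 0.923 (0.546 to 1.54).

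Scores of the shared summits described how strongly each library listed them. The 8 at simple-epithelium keratins had a median score of 14.2 in replicate 1 and 16.4 in replicate 2, and 7 of the 8 lay above the median of both lists, or 87.5%. The 58 of the hair and skin stretches had medians of 10.9 and 12.2, and 31 lay above both medians, or 53.4%. Over all 47396 shared summits the medians were 10.1 and 11.9 and the share was 51.1%. Among the 224 shared summits of the flanks the share was 59.4%. No intervals were calculated for these shares, and the 8 summits are too few to tell them apart. The values of both classes overlapped over most of their range, from 7.26 to 32.0 and from 2.80 to 38.4 in replicate 1. Of the 66 shared cluster summits, 4 reached the top decile of both lists, or 6.06%, against 9.11% of all shared summits, and this difference was not tested. Across the 66 pairs Spearman's rank correlation of the scores was 0.714, a description over summits that share 2 libraries.

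**Figure D4:**
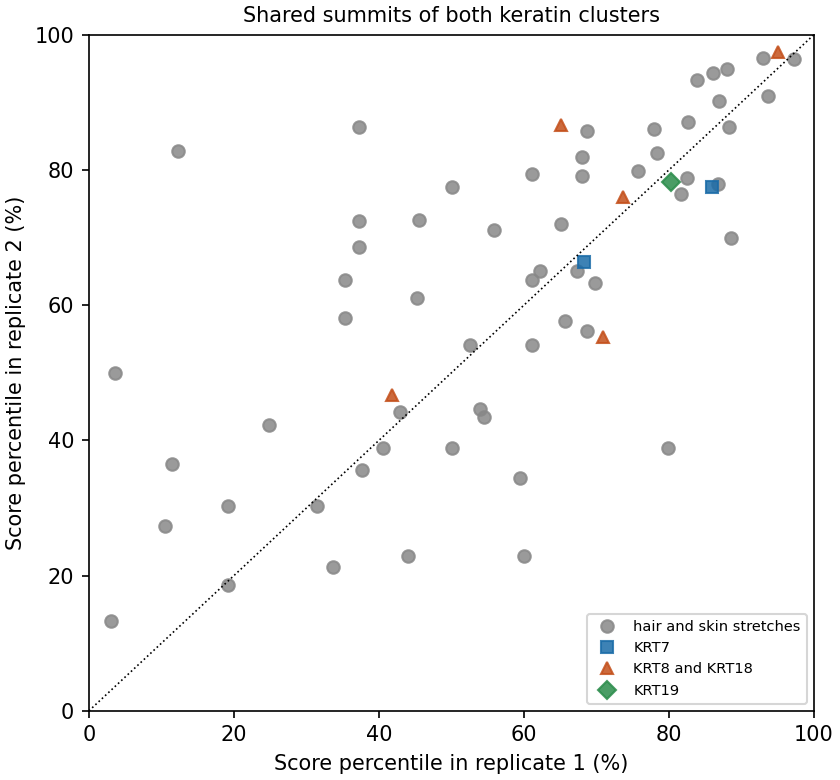
Score percentiles of the 66 shared cluster summits in replicate 1 (horizontal, %) and replicate 2 (vertical, %), with the simple-epithelium keratins as squares (KRT7), triangles (KRT8 and KRT18) and a diamond (KRT19). The dotted line marks equal percentiles. Of the 8 summits at these genes, 7 lie above the median in both libraries, and the hair and skin summits spread over the whole range.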

How the data were processed

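ChIP-seq summits of HA-TFE3 were taken from 1 deposited list per ChIP replicate, each naming peaks with a position and a value. This value is a score that the authors deposited for each summit, on a scale that no source used here states. Per the submitters' processing notes the build is hg19. The aligner, the peak caller and the role of the input were not given in the sources used here. Positions were counted from 1, and only chromosomes 1 to 22 and X entered. Depth is unknown. Cluster limits and intervals of KRT7, KRT8 with KRT18, and KRT19 were fixed with earlier results of these data known, as were the lists and members.

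Densities carry exact Poisson intervals, shares exact (Clopper-Pearson) binomial intervals, and density ratios exact conditional binomial intervals. A ratio was called different where its 95% interval left out 1. No p-value is given. Summits named with positions were all shared summits of the simple-epithelium keratins, the 5 shared summits of highest mean percentile in each hair and skin stretch, and the longest stretch without a shared summit. Summits of a single library, the distance classes and other named positions were chosen after their values were seen. Bands came from circlize 0.4.16. Promoter sequences came from RefSeq on GRCh38.p14. Pairing and ratio steps were tested on simulated data with widely spaced summits and independent counts. These tests do not cover closely spaced or dependent summits such as those of the clusters. Calculations used Python 3.11.15, NumPy 2.4.6, pandas 2.3.3 and SciPy 1.17.1. Alternatives were other pairing limits, score limits, single libraries, wider intervals, trimmed clusters, merged summits and shorter flanks.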

Additional observations from a re-analysis of the deposited data

How the results depend on the processing

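The density ratio of simple-epithelium keratins over hair and skin stretches, in both clusters together and in type II, stayed above 1, with an interval that left out 1, under all alternatives except those named here. With the 10000 highest-scoring summits it was 3.16 in both clusters and 4.99 in the type II cluster, and with summits within 1 kb counted as 1 place it was 2.17 and 2.22, each with an interval that included 1. For KRT19 alone, not different as reported, the ratio was 10.1 at a pairing limit of 500 bp, 5.57 with the interval widened by 5 kb and 3.01 with it widened by 50 kb, each with an interval above 1. It was 0 among the 10000 highest-scoring summits, where KRT19 had no shared summit. Without one replicate the ratios ran from 3.87 to 3.90 in both clusters, 3.69 to 3.74 in type II and 8.21 to 9.61 in type I; that of replicate 1 alone, 9.61 (1.13 to 37.0), left out 1. The type II cluster over its flanks ran from 0.679 to 0.721 and the type I cluster from 0.426 to 0.495 without one replicate. The share of shared cluster summits was 63.7% in replicate 1 and 54.3% in replicate 2 at 50 bp. A stricter pairing limit can only remove pairs, in any region. The share over all summits was not counted at 50 bp, so these values describe no trait of the clusters. Widening by 50 kb and the hair and skin stretches over the flanks were added after seeing the data. No alternative left out the 426.6 kb of the type II cluster without a shared summit. Among the other values (counts by gene, counts by cluster and the longest stretches), 14 moved past 1.5-fold and 35 did not. No paired analysis was possible because there is a single ChIP group and no group to pair it with.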

Other observations

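In all, 4 shared cluster summits differed by more than 40 percentile points between the libraries, or 6.06% of the 66, against 8.11% of all shared summits. The widest gap was at base 38960031 of chromosome 17, which scored 4.35 in replicate 1 and 19.9 in replicate 2, at percentiles 12.2 and 82.7, although the libraries placed it only 7 bp apart. The opposite direction occurred at base 39261042, the last shared summit before the longest empty stretch of the type I cluster, with 17.4 in replicate 1 and 6.95 in replicate 2. At the far end of the type I cluster, beyond the shared summit at base 39735931, replicate 2 had 3 summits, at bases 39769262, 39771839 and 39775301, with scores of 8.21, 6.93 and 9.39. Replicate 1 had none there.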
